A study of Homo sapiens with 12 samples.

Results

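DNA methyltransferases, the methylation reader UHRF1 and the TET dioxygenases were examined in human embryonic stem cells (hESCs) without the ubiquitin adaptor UBQLN1. The 8 genes are DNMT1, DNMT3A, DNMT3B, DNMT3L, UHRF1, TET1, TET2 and TET3. They were picked by symbol, as the enzymes that write, copy and oxidise DNA methylation with their known partners, and are 8 of the 28278 genes of the count table. Of these, 7 were among the 15916 genes that passed the filter on low counts. RNA-sequencing libraries of the established line WA26 fell into 4 groups of 2 libraries, which were wild-type (WT) cells at normal O2, UBQLN1-/- (KO) cells at normal O2, KO cells at low O2 (5% O2) and KO cells given the antioxidant N-acetyl-L-cysteine (NAC) at an O2 level that the labels do not state. Clones of WT and KO cells were picked after CRISPR-Cas9 editing of WA26 cells, and the study does not say which clone each library came from, so clone and genotype cannot be told apart. The study describes DMSO as the vehicle for NAC, which the labels do not name. KO cells at normal O2 without NAC are called untreated here, whether or not they had vehicle. The study's scheme gives NAC and low O2 over several passages before RNA-seq, while its text gives a culture of hours for RNA-seq at low O2. The labels state neither passage nor exposure time, so these cannot be told apart from the groups. WT cells given NAC or kept at low O2 were not analysed here, so each effect of NAC or low O2 applies to KO cells alone.

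DNA methylation in mammals is placed on cytosines that precede guanines. DNMT3A and DNMT3B add new marks, with DNMT3L as a partner that has no catalytic activity, while UHRF1 binds hemimethylated DNA after replication and brings in DNMT1, which copies the marks to the new strand. TET1, TET2 and TET3 oxidise 5-methylcytosine with O2, iron and 2-oxoglutarate, and primed hESCs are known for high DNMT3B and TET1 with little TET2.

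The libraries held from 31236968 to 41639350 counts. Levels are given as CPM (counts relative to library size) on library sizes scaled by TMM, and changes as log2 fold changes with a standard error (SE) from edgeR's quasi-likelihood test, called at an adjusted p under 0.05 over all tested genes. The fit had 4 residual degrees of freedom. The study calls the replicates of low against normal O2 biological, and no source says whether the libraries of a group came from separate cultures, so the p-values measure the spread between these libraries, which may in part be technical. Within each group the pair of libraries differed by more than sampling alone gives. Over genes with at least 10 counts in the pair, chi-square divided by its degrees of freedom was lowest in KO (9.32) and highest with NAC (30.5). This measure sets the libraries against counting error alone, so it does not show whether the spread is biological or technical.

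UBQLN1 checked the genotype labels. It was at 221 and 197 CPM in WT, at 42.3 and 43.5 CPM in KO, at 51.9 and 47.7 CPM in KO at low O2 and at 62.4 and 49.3 CPM with NAC. The 6 KO libraries were all below both WT libraries, and UBQLN1 fell in KO with a log2 fold change of -2.29 (SE 0.12, adjusted p = 2.52e-06). With NAC it was higher than in untreated KO cells (0.38 on the log2 scale, adjusted p = 0.0196), a call lost without NAC replicate 1 (0.20, adjusted p = 0.168) and after removal of a length and GC trend described below (0.21, adjusted p = 0.165). UBQLN1 shares 117 exon bases with the antisense gene UBQLN1-AS1, and counting at default settings ignores strand.

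The cell type of the labels was checked against its markers. All 10 pluripotent stem cell markers had counts in every library, their summed level ran from 4240 to 5183 CPM, and LIN28A was the most abundant in each. LIN28A, LIN28B, POU5F1, NANOG, TDGF1, ZFP42 and DPPA4 are uncertain, since from 11.1% (DPPA4) to 82.3% (POU5F1) of the 31-base words of their transcripts recur elsewhere in the genome, and counting at default settings leaves out reads that match several places. Of 7 naive pluripotent markers, 2 to 4 were under 1 CPM in each library and their sum was at most 27.1 CPM. The 12 markers of early germ layers and trophoblast summed to at most 17.8 CPM, and SOX1 was the most abundant in every library. In NAC against KO, 3 of 10 pluripotent markers rose and 3 fell (median log2 fold change 0.04), 3 of 5 tested naive markers fell and none rose, and 1 of 6 tested germ layer markers fell and none rose. In this comparison 23.8% of all tested genes were higher and 20.8% lower. Without NAC replicate 1, 3 pluripotent markers rose and 4 fell (median -0.19), 3 of 5 naive markers fell, 2 of 8 tested germ layer markers fell, and none of either of these lists rose. With all libraries no naive or germ layer marker was higher by DESeq2 or at an unadjusted p under 0.05, while 3 naive markers were lower by each, and 2 germ layer markers were lower by DESeq2 and 4 by unadjusted p. However, after a length and GC trend was removed SUSD2, a naive marker named here after its values were seen, was called higher (0.92, adjusted p = 0.0139). With the trend removed, 2 pluripotent markers rose and 4 fell (median -0.20), where 2306 of 15024 genes were higher and 1646 lower.

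NAC replicate 1 stood apart from the other 7 libraries in its fibroblast and mesenchyme markers. DCN, a proteoglycan of connective tissue, was at 47.2 CPM in that library and had no count in the other 7, and LUM was at 3.86 CPM against no count in the other 7. COL3A1 was at 29.1 CPM there and at most 0.207 CPM elsewhere, and PDGFRB was at 27.7 CPM against 2.004 CPM in NAC replicate 2. The 8 markers summed to 470 CPM in NAC replicate 1 and to 150 CPM in NAC replicate 2, with COL1A2 as the most abundant gene at 245 and 113 CPM, and the sums of the other 6 libraries lay between 182 and 221 CPM. All 8 markers were highest in NAC replicate 1, and 3 of them had no count in NAC replicate 2. Of 4 tested markers of this list, PDGFRB and PDGFRA were called higher in NAC against KO (log2 fold changes of 3.53 and 1.54), and neither was called without NAC replicate 1 (0.63 and 0.22), where COL1A1 and COL1A2 were called lower (-0.79 and -0.43). With all libraries DESeq2, which was run without the filter on low counts, called 4 of the 8 markers higher. The part of these transcripts in the results with NAC was not tested, and fold changes in NAC against KO are therefore also given without that library. In bulk RNA, fewer cells of a type and less RNA per cell cannot be told apart.

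**Figure D1:**
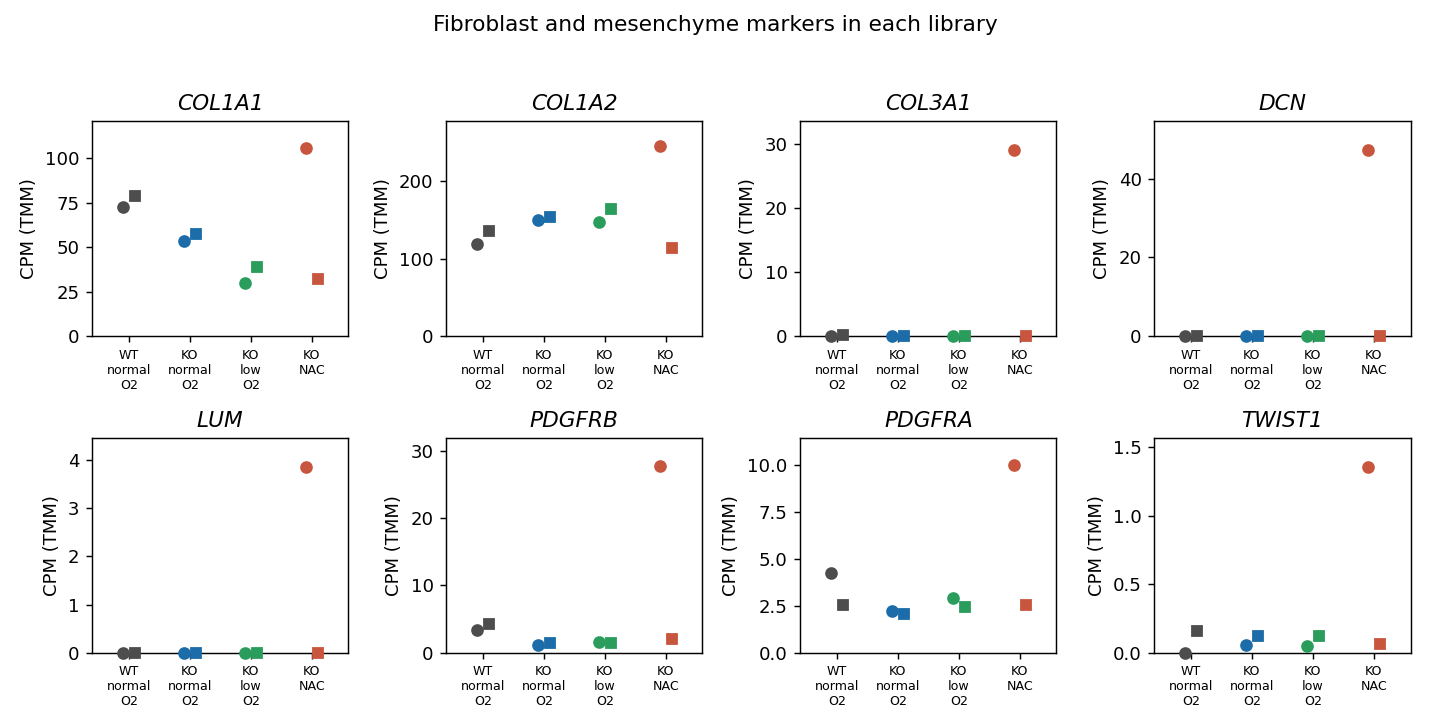
CPM of the 8 fibroblast and mesenchyme markers in each library (circles are replicate 1, squares are replicate 2), by group, on linear axes from 0. NAC replicate 1 is the highest library in every panel, and DCN is at 47.2 CPM there and at 0 in the other 7 libraries.

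Promoter sequences are shown for DNMT1, UHRF1, DNMT3B and TET3, the 4 members with the largest decreases from KO to NAC. They were picked by that comparison alone. In KO against WT, DNMT3B was at -0.04 on the log2 scale, with DNMT1, UHRF1 and TET3 at 0.23, 0.41 and 0.52. RefSeq's table of promoters (GRCh38.p14, 300 bases from 250 before to 50 after a start) held 7 of the 8 genes, and the entry nearest the start of the Ensembl canonical transcript was taken. DNMT3B had 1 entry, whose start lies 17467 bases from that transcript's start. Only bases before the start that lie in no annotated exon are printed, in lower case, 5′ to 3′ on the strand of the gene, with ACGTG and GCGTG, the core words of hypoxia response elements, in capitals on either strand.
DNMT1, minus strand, chr19:10195136-10195203: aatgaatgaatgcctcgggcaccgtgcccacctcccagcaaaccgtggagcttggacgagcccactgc
UHRF1, plus strand, chr19:4909251-4909429: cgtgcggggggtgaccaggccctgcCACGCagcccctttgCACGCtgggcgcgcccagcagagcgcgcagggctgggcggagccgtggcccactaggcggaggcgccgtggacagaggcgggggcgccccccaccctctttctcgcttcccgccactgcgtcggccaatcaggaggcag
DNMT3B, plus strand, chr20:32779602-32779851: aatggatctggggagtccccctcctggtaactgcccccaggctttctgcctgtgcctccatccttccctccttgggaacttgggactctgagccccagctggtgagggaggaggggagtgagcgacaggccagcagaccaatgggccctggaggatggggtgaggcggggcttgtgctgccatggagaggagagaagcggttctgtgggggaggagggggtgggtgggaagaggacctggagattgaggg
TET3, plus strand, chr2:73984660-73984909: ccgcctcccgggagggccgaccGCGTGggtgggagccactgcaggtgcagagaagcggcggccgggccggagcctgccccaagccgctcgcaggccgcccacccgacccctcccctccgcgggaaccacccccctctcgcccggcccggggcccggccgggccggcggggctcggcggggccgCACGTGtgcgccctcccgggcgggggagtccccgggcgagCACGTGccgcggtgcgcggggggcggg
Over the whole 300 bases, TET3 held ACGTG 4 times, counting both strands, so that each CACGTG counts on each, and GCGTG 1 time. DNMT1 held GCGTG 3 times, all outside the printed stretch, UHRF1 held it 2 times, TET2 held ACGTG 1 time, and DNMT3A, DNMT3B and TET1 held neither word. Of 35116 promoters in the table, 21.4% held ACGTG and 36.5% held GCGTG. The E2F words TTTCGCGC, TTTGGCGC and TTTCCCGC were searched on both strands too. DNMT1 held TTTCGCGC 1 time, a word in 0.515% of all promoters, and UHRF1 held TTTCCCGC 1 time, a word in 1.63%, while TTTGGCGC, in 0.652% of all promoters, was in none of the 7 members with an entry. CG dinucleotides numbered 30 in DNMT1, 36 in UHRF1, 35 in TET2, 45 in TET3 and 46 in DNMT3A, against 10 in TET1, 3 in DNMT3B and a median of 14 over all promoters. A word in the window is a description of the sequence and does not show that a factor binds there.

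Levels between genes were compared per transcript length, as TPM (counts per base of transcript, scaled to a common total) from the Ensembl canonical transcripts of 24233 genes with a length. DNMT3B was the most abundant of the 8 in every library, at 1316 ± 72.0 TPM (SD, n = 2) in WT, which ranked 104 among the genes. DNMT1 was at 90.6 ± 5.98 TPM, UHRF1 at 62.1 ± 0.688 TPM and DNMT3A at 35.2 ± 0.591 TPM in WT (SD, n = 2). Among the dioxygenases, TET1 was at 19.2 ± 1.60 TPM and TET3 at 6.41 ± 0.683 TPM in WT (SD, n = 2), and TET2 was at 0.0495 TPM. DNMT3B made up 88.1% to 91.3% of the summed TPM of the 4 methyltransferase genes in every library. UHRF1 is uncertain, since 60.7% of its 31-base words recur elsewhere in the genome.

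DNMT1, the maintenance methyltransferase (chr19:10133342-10231286, minus strand), was at 221 and 209 CPM in WT and at 259 and 245 CPM in KO. It was at 176 and 212 CPM in KO at low O2 and at 116 and 124 CPM with NAC. The KO pair was above all other libraries, the NAC pair was below all other libraries, and the low O2 pair overlapped WT. DNMT1 fell with NAC relative to untreated KO, to 0.476 of its level (log2 fold change -1.07, SE 0.10, adjusted p = 1.96e-05), and without NAC replicate 1 the log2 fold change was -1.03. It also fell at low O2 relative to KO (log2 fold change -0.38, SE 0.10, adjusted p = 0.0417), a call that was lost when low O2 replicate 1 or any WT or KO library was left out (adjusted p from 0.0639 to 0.372). In order of level the groups were KO, WT, low O2 and NAC, and of the neighbours only low O2 and NAC differed by the test (log2 fold change -0.69, adjusted p = 7.90e-04, and -0.65 without NAC replicate 1). DNMT1 shares 83 exon bases with S1PR2 on the same strand, and counting at default settings leaves out reads that overlap more than 1 gene.

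UHRF1, which recruits DNMT1 to newly copied DNA (chr19:4903080-4962154, plus strand), was at 106 and 112 CPM in WT and at 149 and 141 CPM in KO. It was at 98.2 and 113 CPM at low O2 and at 68.3 and 73.4 CPM with NAC. Both KO libraries were above the other 6 and both NAC libraries below the other 6, and low O2 overlapped WT. Against WT, KO cells had a log2 fold change of 0.41 (SE 0.10, adjusted p = 0.0526), which missed the threshold, with an adjusted p from 0.00346 to 0.418 over the alternatives and of 0.0113 without NAC replicate 1. UHRF1 fell with NAC relative to KO (log2 fold change -1.03, SE 0.10, adjusted p = 1.98e-05), also without NAC replicate 1 (-0.99). It fell at low O2 relative to KO (log2 fold change -0.46, SE 0.10, adjusted p = 0.0208), a call lost when low O2 replicate 1 or either KO library was left out (adjusted p from 0.121 to 0.260). The order of levels was KO, WT, low O2 and NAC, and of the neighbours only low O2 and NAC differed by the test (log2 fold change -0.58, adjusted p = 0.00164, and -0.53 without NAC replicate 1). The ratio of UHRF1 to DNMT1 in TPM was 0.649 and 0.724 in WT, 0.780 and 0.777 in KO, 0.7565 and 0.721 at low O2 and 0.7955 and 0.804 with NAC. The NAC pair was above the other 6 libraries, and WT was below KO and overlapped low O2, as a description with no test. The level of UHRF1 is uncertain, as given above.

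DNMT3A, a de novo methyltransferase (chr2:25227855-25342590, minus strand), was at 148 and 150 CPM in WT, at 186 and 183 CPM in KO, at 161 and 180 CPM at low O2 and at 125 and 134 CPM with NAC. No pair of groups overlapped, with the KO pair above all others and the NAC pair below. The groups in order were KO, low O2, WT and NAC, and no neighbours differed by the test (adjusted p = 0.460, 0.253 and 0.0854). Against WT, KO cells were at 0.31 on the log2 scale (adjusted p = 0.101), and the difference was called by DESeq2 (adjusted p = 0.0297) and in edgeR without NAC replicate 1 or 2 (adjusted p = 0.0296 and 0.0308). Relative to untreated KO, DNMT3A fell with NAC (log2 fold change -0.51, SE 0.09, adjusted p = 5.69e-04), also without NAC replicate 1 (-0.47). Once a smooth curve on transcript length and GC content had been taken out of each library (the trend removed), the direction turned, with a log2 fold change of 0.22 (adjusted p = 0.0420), and the adjusted p of the alternatives ran from 1.11e-07 to 0.0578.

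DNMT3B, the most abundant de novo methyltransferase of these cells (chr20:32762385-32809359, plus strand), was at 2617 and 2517 CPM in WT and at 2553 and 2455 CPM in KO. It was at 2180 and 2345 CPM at low O2 and at 1136 and 1418 CPM with NAC. WT and KO overlapped, both low O2 libraries were below these 4, and NAC was below all. DNMT3B fell with NAC to 0.510 of the KO level (log2 fold change -0.97, SE 0.10, adjusted p = 2.67e-05) and to 0.498 of the WT level, and without NAC replicate 1 the log2 fold changes were -0.82 and -0.86. The order was WT, KO, low O2 and NAC, and of the neighbours only low O2 and NAC differed by the test (log2 fold change -0.82, adjusted p = 3.89e-04, and -0.68 without NAC replicate 1). In KO against WT its 95% interval ran from -0.25 to 0.18 on the log2 scale.

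DNMT3L, the catalytically inactive partner (chr21:44246339-44262216, minus strand), did not pass the filter on low counts. It had 2 and 6 counts in WT, 4 and 0 in KO, 0 and 0 at low O2 and 0 and 2 with NAC. A count of 0 allows up to 3 counts, or 0.0736 and 0.0935 CPM in the low O2 libraries, for counting error only. It was not tested in any comparison. In addition, 30.4% of its words recur elsewhere in the genome, and 241 of its exon bases are shared with the antisense gene DNMT3L-AS1.

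**Figure D2:**
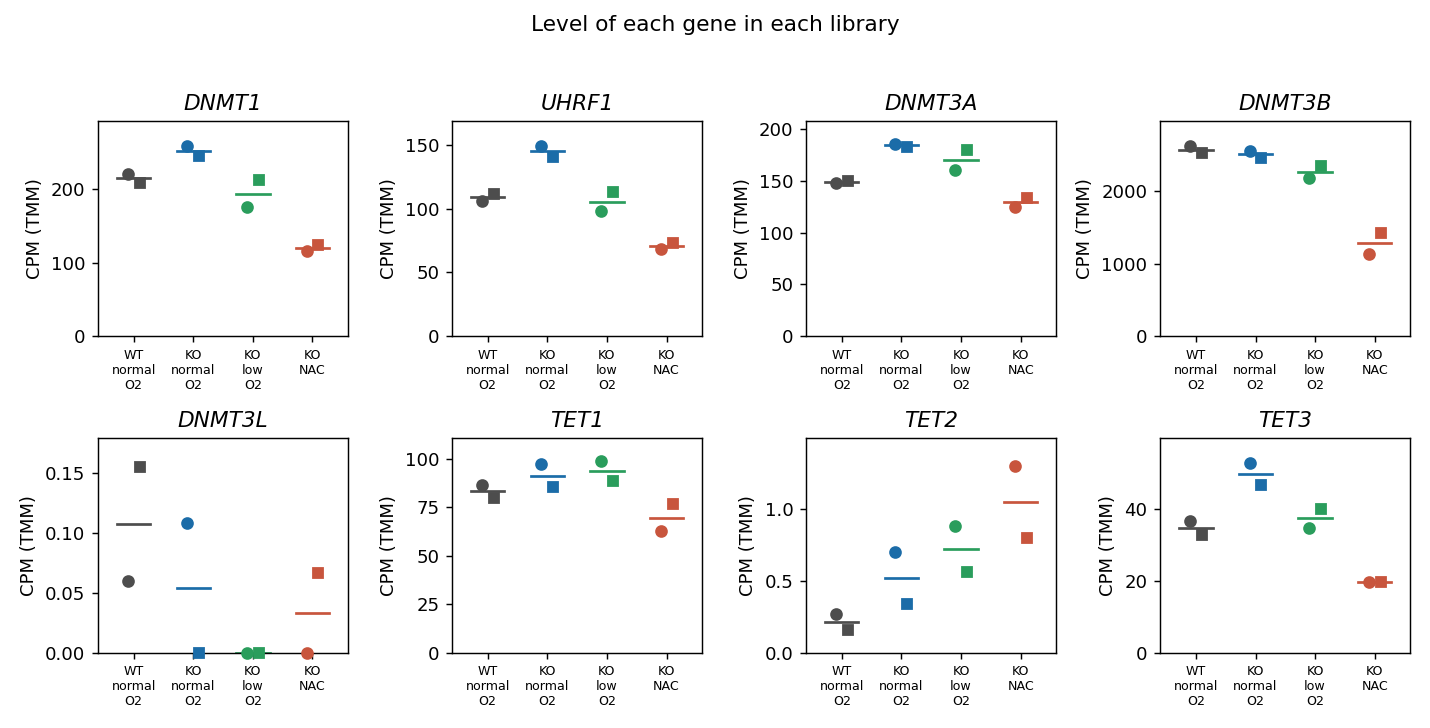
CPM of the 8 genes in each library by group (circles are replicate 1, squares are replicate 2, bars are the group means), on linear axes from 0. The NAC libraries are below all other libraries for DNMT1, UHRF1, DNMT3A, DNMT3B, TET1 and TET3, and DNMT3L has at most 6 counts in any library.

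TET1, the most abundant TET gene per length in every library (chr10:68560337-68694487, plus strand), was at 86.4 and 79.8 CPM in WT and at 97.2 and 85.3 CPM in KO. It was at 98.8 and 88.6 CPM at low O2 and at 62.6 and 76.5 CPM with NAC. The NAC pair was below the other 6 libraries, and the other 3 groups were close, with KO overlapping both. The log2 fold change with NAC relative to KO was -0.39 (SE 0.12, adjusted p = 0.0164), and the call was lost without NAC replicate 1 (-0.26, adjusted p = 0.0931) and without KO replicate 1 (-0.30, adjusted p = 0.155). The order was low O2, KO, WT and NAC, and no neighbours differed by the test (adjusted p = 0.877, 0.591 and 0.103).

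TET2 (chr4:105145875-105279816, plus strand) was near the lower limit of the counts, with 9 and 6 counts in WT, 26 and 14 in KO, 36 and 18 at low O2 and 50 and 24 with NAC. Scaled to CPM these were 0.270 and 0.156 in WT, 0.705 and 0.340 in KO, 0.883 and 0.561 at low O2 and 1.31 and 0.802 with NAC. The WT pair was below the other 6 libraries and the NAC pair was above KO, and low O2 overlapped both KO and NAC. With 9 and 6 counts in WT, TET2 passed the filter on low counts through the KO groups, where it was higher. The filter therefore favours a rise over WT, and calls of TET2 against WT are described without being taken as support. TET2 rose in NAC against WT (log2 fold change 2.31, SE 0.64, adjusted p = 0.0138), a call lost without NAC replicate 1 (1.91, adjusted p = 0.0691) and without WT replicate 2 (1.92, adjusted p = 0.110). The order was NAC, low O2, KO and WT, and no neighbours differed by the test (adjusted p = 0.517, 0.664 and 0.331).

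TET3 (chr2:73984910-74108176, plus strand), the longest transcript of the 8 with 12060 bases, was at 36.7 and 32.8 CPM in WT and at 52.9 and 46.9 CPM in KO. It was at 34.9 and 40.1 CPM at low O2 and at 19.7 and 19.9 CPM with NAC. The KO pair was above all others, the NAC pair was below all others, and low O2 overlapped WT. TET3 rose in KO (log2 fold change 0.52, SE 0.11, adjusted p = 0.0405), but not past the threshold after the length and GC trend was removed (0.32, adjusted p = 0.154) or when any of the 4 libraries compared was left out (adjusted p from 0.124 to 0.406). It also missed the threshold without either low O2 library (adjusted p = 0.0727 and 0.0735). It fell with NAC relative to KO, to 0.397 of its level (log2 fold change -1.33, SE 0.12, adjusted p = 1.66e-05), also without NAC replicate 1 (-1.33). It fell at low O2 relative to KO (log2 fold change -0.41, SE 0.11, adjusted p = 0.0492), where the change was -0.02 after the trend was removed. That call was lost when any WT, KO or low O2 library was left out (log2 fold changes from -0.513 to -0.313). It was also lost, with about the same change, with RLE size factors (-0.412, adjusted p = 0.0534) and with the replicate block (-0.409, adjusted p = 0.0520). The order was KO, low O2, WT and NAC, and of the neighbours only low O2 and WT did not differ by the test (adjusted p = 0.656). TET3 made up 30.1% and 30.4% of the TET transcripts per length in KO and 19.7% and 17.0% with NAC, with WT at 25.2% and 24.6% and low O2 at 21.8% and 26.4%. It shares 390 exon bases with the long noncoding gene ENSG00000235499 on the same strand.

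The comparison of KO with WT asks what loss of UBQLN1 does at normal O2. Of the 7 tested genes, TET3 alone was higher by adjusted p, 1 of 7 genes where 1.34% of all tested genes were higher, and none was lower where 0.622% were lower. By unadjusted p under 0.05, 4 were higher and none lower, where 2804 of 15916 tested genes were under it in either direction, and by DESeq2 3 were higher and none lower, where DESeq2 called 530 genes higher and 302 lower. The median log2 fold change of the 7 was 0.31, against -0.002 over all tested genes. After the length and GC trend was removed none was called and the median was 0.14. Fold changes in KO against WT had a Spearman correlation of 0.14 with GC content and 0.23 with transcript length across 15024 genes, which are not independent replicates.

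The comparison of NAC with untreated KO cells asks what the antioxidant changes without UBQLN1. Of 7 tested genes, 6 were lower, where 20.8% of all tested genes were lower, and none was higher, where 23.8% were higher, nor was any higher by DESeq2 or at an unadjusted p under 0.05. The 7 genes had a median log2 fold change of -0.97, against 0.02 over all tested genes. DNMT1, UHRF1, DNMT3B and TET3 were lower under every alternative that calls by adjusted p, including each library left out in turn and the trend removed (log2 fold changes of -0.57, -0.64, -0.59 and -0.53). DNMT3A turned to a called increase of 0.22 and TET1 moved to -0.21 (adjusted p = 0.162) once the trend was removed, and with a replicate block besides the DNMT3A increase was not called (adjusted p = 0.0578). Fold changes with NAC had a Spearman correlation of -0.50 with GC content and -0.26 with transcript length across 15024 genes. By length, 94.5%, 94.8% and 97.7% of tested genes were at most as long as DNMT3A, TET1 and TET3. For GC content, the shares at or below DNMT1, UHRF1, DNMT3B, DNMT3A and TET3 were 67.7%, 70.1%, 64.9%, 63.9% and 62.6%. They were 24.8% for TET1 and 20.8% for TET2.

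**Figure D3:**
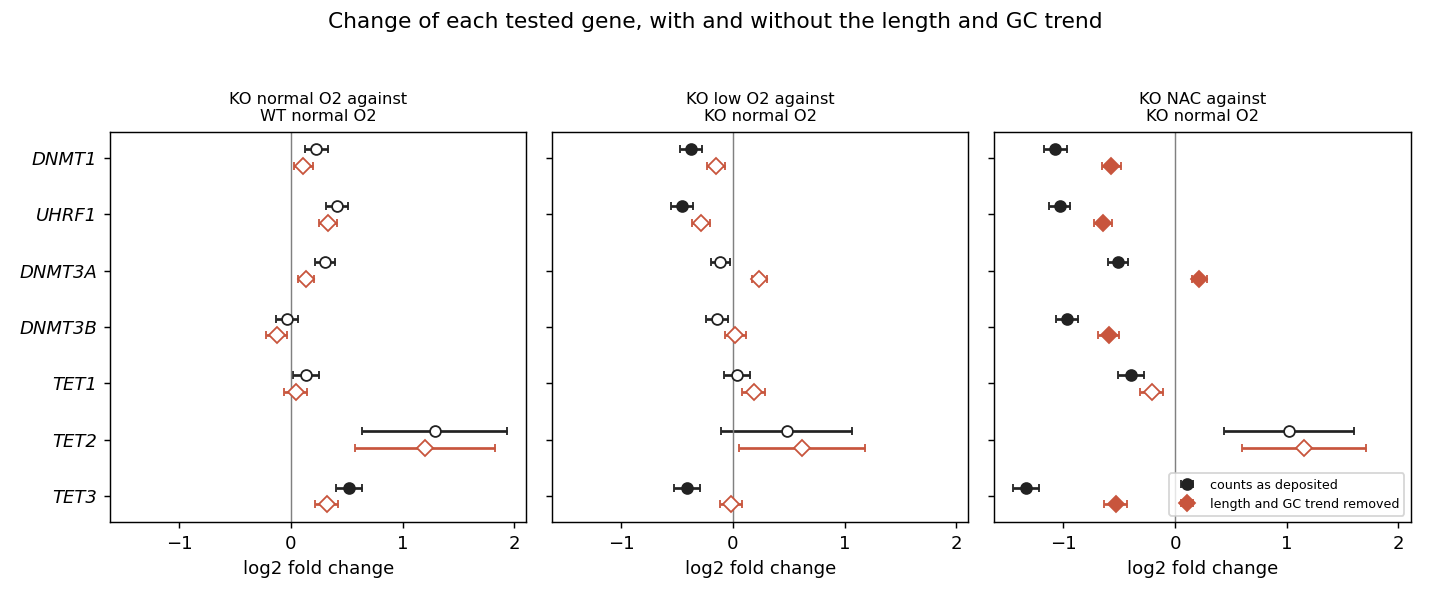
Log2 fold changes of the 7 tested genes with standard errors as bars, in 3 comparisons, for counts as deposited (circles) and after removal of a trend on transcript length and GC content (diamonds), with filled marks at an adjusted p under 0.05. With NAC, DNMT3A moves from -0.51 to 0.22, while DNMT1, UHRF1, DNMT3B and TET3 are below 0 in both.

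The comparison of low O2 with normal O2 in KO cells asks what less oxygen changes without UBQLN1. DNMT1, UHRF1 and TET3 were lower, 3 of 7 genes where 4.13% of all tested genes were lower, and none was higher where 3.68% were higher, by edgeR, by DESeq2 or at an unadjusted p under 0.05. After the trend was removed none of the 7 was called, and log2 fold changes were -0.15 for DNMT1, -0.29 for UHRF1 and -0.02 for TET3. The median over the 7 was -0.15 before and 0.02 after the trend was removed. Relative to WT, none of the 7 was called at low O2 by adjusted p, where 1.78% of all tested genes were higher and 1.48% lower. By unadjusted p under 0.05, DNMT3A and TET2 were higher and none was lower, where 3057 of 15916 tested genes were under it in either direction, and by DESeq2 none was called. With the trend removed, DNMT3A was higher at low O2 than in WT (log2 fold change 0.37, adjusted p = 0.0159), where 405 of 15024 genes were higher and 213 lower.

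Treated cells were also set against WT and against each other. NAC against WT gave 4 of 7 genes lower, DNMT1, DNMT3B, UHRF1 and TET3, where 17.6% of all tested genes were lower. TET2 was higher, where 20.6% were higher, but it passed the filter only through the groups where it was higher than in WT. DESeq2 and an unadjusted p under 0.05 each gave 6 lower and 1 higher, with DNMT3A and TET1 added (adjusted p = 0.0366 and 0.0488 by DESeq2), where 7463 of 15916 tested genes had such an unadjusted p in either direction and DESeq2 called 3074 genes higher and 3007 lower. NAC against low O2 gave 6 of 7 lower, where 13.6% of all tested genes were lower, and none higher, where 15.5% were higher, also by DESeq2 and at an unadjusted p under 0.05. Without NAC replicate 1, TET2 against WT (adjusted p = 0.0691) and TET1 against low O2 (adjusted p = 0.0753) were no longer called. Against low O2, TET1 was also not called without low O2 replicate 1 or 2 (adjusted p = 0.120 and 0.0607), nor DNMT3A without low O2 replicate 2 (adjusted p = 0.0834). After the trend was removed, TET3 against WT (-0.21, adjusted p = 0.169) and DNMT3A against low O2 (-0.02, adjusted p = 0.889) were not called, and DNMT3A was higher with NAC than in WT (0.35, adjusted p = 0.00707). The comparisons with a common group share its libraries, so their values stand side by side and are not independent of them. For TET3, the log2 fold changes were 0.52 in KO against WT, -0.81 in NAC against WT (also without NAC replicate 1) and 0.11 in low O2 against WT, and for DNMT3B they were -0.04, -1.01 and -0.18.

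The sum of DNMT1, DNMT3A, DNMT3B and DNMT3L over the sum of TET1, TET2 and TET3, per length, was 54.8 and 57.6 in WT, 45.1 and 49.4 in KO, 41.7 and 47.7 at low O2 and 35.9 and 37.7 with NAC. WT was the highest and NAC the lowest group without overlap, and KO overlapped low O2, as a description with no test. DNMT3B made up 88.1% to 91.3% of the first sum and TET1 69.35% to 82.12% of the second. By GC content, 64.9% of tested genes were at or below DNMT3B and 24.8% at or below TET1. The length and GC trend was not removed from these values, and its part in the ratio was not tested.

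Genes that work with these enzymes were followed in NAC against KO, where a pair of values in parentheses gives the log2 fold change with all libraries and then without NAC replicate 1. Of all tested genes 23.8% were higher and 20.8% lower in this comparison, and no list was tested against these shares. Of 18 tested paralogues and maintenance partners, 5 rose and 9 fell, with a median log2 fold change of -0.52 that was -0.32 without NAC replicate 1 and -0.19 after the trend was removed. PCLAF, a clamp-associated factor (1.20 and 1.43), and PCNA, the replication clamp (0.84 and 0.88), rose, while EHMT1 (-1.11 and -1.09) and NSD1 (-1.06 and -0.92), histone methyltransferases, fell. After the trend was removed, PCLAF (0.62), EHMT1 (-0.56) and NSD1 (-0.49) were called and PCNA was not (adjusted p = 0.0545). PCLAF and PCNA are uncertain, with 22.3% and 11.9% of their words elsewhere in the genome.

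Of 8 genes listed as methyl-CpG readers, MBD4 rose (0.45 and 0.44) and 5 fell, among them ZBTB4 (-0.89 and -0.965) and MBD3 (-0.85 and -0.69). The median was -0.37 with and without NAC replicate 1, and -0.05 after the trend was removed, where 1 of the 8 was called lower, and it was none of these 3. MBD4 changed direction (-0.04).

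Of 18 TET partners and base excision repair genes, 6 rose and 4 fell with a median of 0.03, with -0.01 without NAC replicate 1 and 0.18 after the trend was removed. CXXC4, a CXXC domain protein (1.495 and 1.14), POLB, the gap-filling polymerase (0.86 and 0.87), and TDG, the glycosylase that removes oxidised cytosine bases (0.72 and 0.80), rose and PROSER1 (-0.72 and -0.835) fell. CXXC4 was no longer called without NAC replicate 1 (adjusted p = 0.122), POLB and TDG were no longer called after the trend was removed (adjusted p = 0.0851 and 0.152), and TDG is uncertain with 63.1% of its words elsewhere.

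Of 10 tested genes of methyl donor supply, 2 rose, MAT2B, a subunit of methionine adenosyltransferase (1.06 and 1.03), and AHCY, which hydrolyses S-adenosylhomocysteine (0.79 and 0.65), and 1 fell. The median was 0.07, or 0.10 without NAC replicate 1, where 4 rose and 1 fell. MAT2A of this list, named here after its values were seen, was at 53.2 CPM in NAC replicate 1 and at 230.7 CPM in NAC replicate 2. It was at 162.5 and 154 CPM in KO, and 37.7% of its words recur elsewhere. After the trend was removed MAT2B was at 0.33 and AHCY at 0.89. Of 12 genes of 2-oxoglutarate supply and removal, 6 rose and 2 fell, with a median of 0.29, with 0.14 without NAC replicate 1 and 0.165 after the trend was removed. IDH1 (0.72 and 0.705), GLUD1 (0.66 and 0.58) and GOT1 (0.52 and 0.44) rose and D2HGDH (-0.90 and -0.89) fell. After the trend was removed 4 rose, among them IDH1 (0.22), GLUD1 (0.49) and GOT1 (0.33). Neither of the genes that fell was called any longer (D2HGDH at -0.38, adjusted p = 0.0816). AHCY, IDH1 and GLUD1 share 13.3%, 20.4% and 43.0% of their words with other places in the genome. None of the genes of the last pair of lists was called in KO against WT by edgeR, where an unadjusted p under 0.05 gave 1 higher and 3 lower methyl donor genes and 2 lower genes of 2-oxoglutarate. By DESeq2, 1 gene was lower in each of these lists. Of the paralogue list, none was called there by edgeR, an unadjusted p under 0.05 gave 2 higher and 1 lower, and DESeq2 gave 2 higher and 0 lower. Of readers and TET partners none was called by edgeR or DESeq2, and 1 reader and 1 TET partner were higher and 1 TET partner lower at an unadjusted p under 0.05. At low O2 relative to KO, 1 of the paralogue list rose and 3 fell, where 3.68% of all tested genes were higher and 4.13% lower. All 4 lost their calls after the trend was removed (adjusted p from 0.173 to 0.840). In low O2 against KO with the trend kept, none of the TET partner list was called by edgeR, with 2 higher and 2 lower at an unadjusted p under 0.05 and 1 higher and 2 lower by DESeq2.

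**Figure D4:**
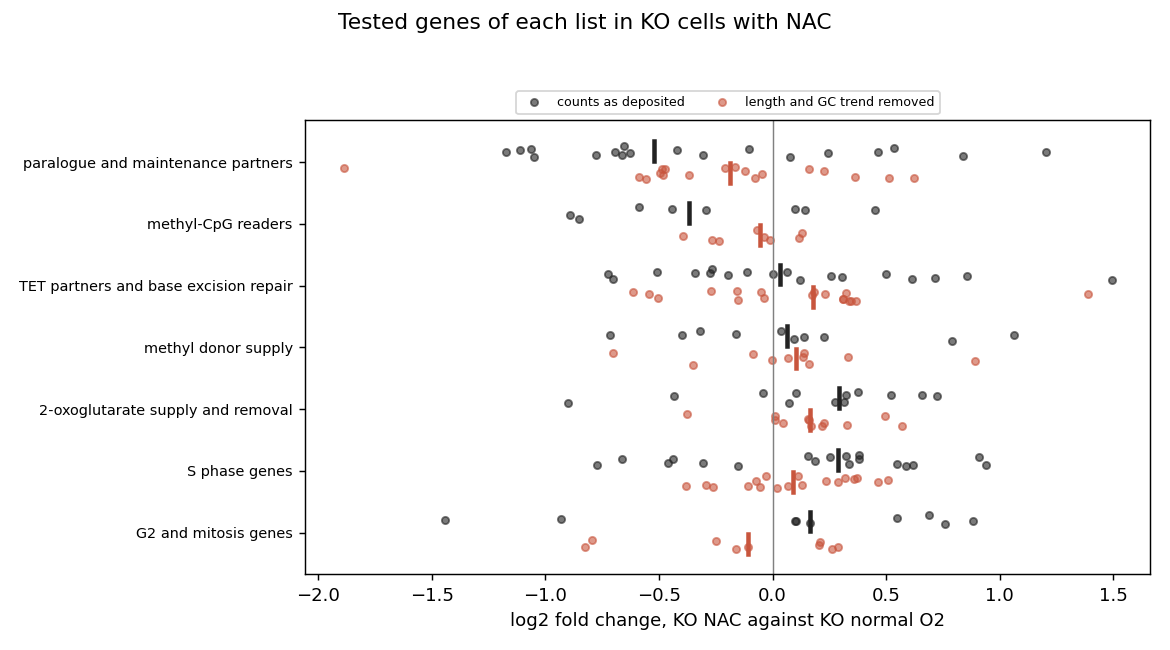
Log2 fold change in KO cells with NAC against untreated KO cells for every tested gene of 7 lists, for counts as deposited (dark) and after removal of the length and GC trend (red), with bars at the medians. The median of the paralogue and maintenance partner list moves from -0.52 to -0.19.

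Genes of the cell cycle were included because DNMT1 and UHRF1 are known for higher transcription around S phase. With NAC, 8 of 18 S phase genes rose and 5 fell, with a median of 0.29 (0.31 without NAC replicate 1), and RFC4 (0.94 and 0.82) and CDC45 (0.62 and 0.61) rose while CDT1 (-0.78 and -0.93) and E2F1 (-0.66 and -0.59) fell. Removal of the trend left 7 higher and 2 lower, with a median of 0.09, and CDT1 was not called (-0.29, adjusted p = 0.0955). Of 9 G2 and mitosis genes, 4 rose and 2 fell, CDK1 (0.88 and 0.73) and CCNB1 (0.76 and 0.76) among the first and MKI67 (-1.44 and -1.51) and CENPF (-0.93 and -1.12) as the others, and after the trend was removed CDK1 was at -0.11. The median of these 9 was 0.17, with 0.07 without NAC replicate 1, and it turned to -0.11 after the trend was removed, where 3 rose and 3 fell. At low O2 relative to KO, an unadjusted p under 0.05 gave 9 higher and 1 lower of the S phase list. It held for 3941 of 15916 tested genes in either direction, and DESeq2 gave 6 of the list higher and none lower. By adjusted p in edgeR, RRM2, SLBP and CDC6 rose and none fell, where 3.68% of all tested genes were higher and 4.13% lower. Only CDC6 of these 3 was called after the trend was removed (0.34, adjusted p = 0.0377; 0.188 for RRM2 and 0.168 for SLBP), and RRM2 is uncertain with 28.3% of its words elsewhere. Of the G2 and mitosis list, CCNB1 and CCNB2 rose there and MKI67 fell (-0.82, adjusted p = 0.0127), and after removal of the trend none of these 3 was called. MKI67 was higher in KO than in WT (0.68, adjusted p = 0.0405), and at 0.50 after the trend was removed, where it was not called (adjusted p = 0.0977). It was the only 1 of the 9 G2 and mitosis genes called in KO against WT, where 1.34% of all tested genes were higher. The median of these 9 was -0.08, with 2 higher and 2 lower at an unadjusted p under 0.05, and 2 higher and 0 lower by DESeq2. Of the 18 S phase genes none was called in KO against WT, with a median of -0.05.

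Targets of hypoxia-inducible factors described the oxygen state. At low O2 relative to KO, 8 of 12 rose with a median log2 fold change of 2.03, where 3.68% of all tested genes were higher. DDIT4 (3.43), PDK1 (3.04), BNIP3 (2.53) and SLC2A1 (2.10) had the largest increases. None fell by edgeR, where 4.13% of all tested genes were lower, nor by DESeq2 or at an unadjusted p under 0.05. BNIP3 shares 53.3% of its words with other places in the genome. With NAC relative to KO, 6 of 12 rose with a median of 0.61, but without NAC replicate 1 the median was -0.07, 4 rose and 1 fell, and DDIT4 moved from 2.36 to -0.20. PDK1 (1.19 and 0.54), PGK1 (1.08 and 0.79) and SLC2A1 (0.85 and 0.69) were called with and without that library, as was LDHA (0.59 and 0.36), named here after its values were seen, and 19.8% and 34.4% of the words of PGK1 and LDHA recur elsewhere. With NAC, 4 of the 12 were called higher after the trend was removed (median 0.28), where 2306 of 15024 genes were higher. Before its removal, 23.8% of all tested genes were higher with NAC relative to KO and 20.8% lower.

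Germline genes that promoter methylation silences in somatic cells were at or near 0. Of 15 such genes, 14 or 15 were under 1 CPM in each library and their sum ran from 2.21 to 4.14 CPM, with DAZL or TEX14 as the most abundant gene. Only 4 were tested, and none was called by edgeR or DESeq2 in any of the 6 comparisons. At an unadjusted p under 0.05 none was higher or lower in KO against WT, NAC against KO or low O2 against KO, while 1 was lower in NAC against WT, 1 was higher and 2 were lower in low O2 against WT, and 1 was higher in NAC against low O2. Without NAC replicate 1, 5 were tested and DAZL was lower at low O2 than in WT (log2 fold change -1.56, adjusted p = 0.0434, against 0.0880 with all libraries), and none was called in NAC against KO.

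Genes with the pattern most like DNMT1, DNMT3A, DNMT3B, TET1, TET2 and TET3 were found by Pearson's r of log2 CPM (prior count 2) over the 8 libraries, among genes with a mean of at least 1. UPF1, PLEKHA6 and PPP6R2 were nearest to DNMT1 (r from 0.996 to 0.998). CUX2, TMEM127 and TICRR were nearest to TET3 (r from 0.994 to 0.998), CSNK1D, ALDH1L2 and FBXW5 to DNMT3B (r from 0.993 to 0.995), and IL17RD, ITGA9 and TRIM8 to DNMT3A (r from 0.982 to 0.984). ZFAT, RFX7 and MPP6 were nearest to TET1 (r from 0.949 to 0.955), and SLC6A15, ZNF84 and SKA3 to TET2 (r from 0.956 to 0.967). The libraries share 4 groups, and GC content and length move with the groups, so these values describe the patterns of these libraries. Without the NAC libraries none of the 3 nearest genes was among the nearest 3 for DNMT1, DNMT3A, DNMT3B and TET1, and 1 was for TET2 and TET3.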

How the data were processed

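Poly(A) or other selection of the RNA is not given in the sources used here, beyond an Illumina TruSeq kit. The submitters' processing notes name FastQC 0.11.9, HISAT2, featureCounts and hg38, and the values the authors deposited are raw counts per gene. The annotation is not given in the sources used here. By default, featureCounts takes no account of strand and drops reads with several matches or in several genes.

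Genes were filtered with filterByExpr (minimum count 10), scaled (TMM) and fitted in edgeR 4.0.16 (R 4.3.3) with quasi-likelihood tests, in one fit of 8 libraries with 1 term per group, and Benjamini-Hochberg adjustment over 15916 genes. The size of each log2 fold change over the root of its F gave its SE. The biological coefficient of variation was 13.7%. The trend on length and GC content, fitted with mgcv 1.9.3, covers the 94.4% of tested genes with both values. Alternatives were DESeq2 1.42.0, RLE, other filters and calls, a replicate block, fewer libraries and the trend. Of the table's symbols, 23807 were matched to the Ensembl reference directly and 426 by an older symbol. A gene is called uncertain where at least 10% of its words recur, a limit chosen with some shares known. All members are named, and UBQLN1. Named list genes are the at most 4 with the largest change among those called. Computations were tested on simulated data. The members and lists were chosen with earlier results of these data known.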

Additional observations from a re-analysis of the deposited data

How the results depend on the processing

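Settings compared were DESeq2, RLE size factors, no filter on low counts, at least 10 counts in every library, a replicate block, only the 4 libraries compared, a call at an absolute log2 fold change over 1 with unadjusted p under 0.05, the length and GC trend removed, and each of 8 libraries left out. The lone library of a group is then assumed to vary like the other groups.

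In KO against WT, 213 genes were higher, with 530 by DESeq2, 782 with no filter, 738 with only 4 libraries, 89 with the trend removed and 79 with the trend and block. Lower were 99, with 302, 470 and 386 by the first 3 of these and 232 by the fold change rule. Members called were 1, with 3, 3 and 3 by the same 3, 2 with at least 10 counts in every library, 2 with the replicate block, and 0 by the fold change rule, with the trend removed and with the trend and block. In NAC against KO, the fold change rule gave 577 higher and 858 lower genes with 3 members, the trend removed gave 2306 and 1646, and trend and block gave 2177 and 1579. In low O2 against KO, higher and lower genes were 1075 and 1035 by DESeq2, 1039 and 1181 with no filter, 1466 and 1543 with 4 libraries, 129 and 192 by the fold change rule, 269 and 53 with the trend removed and 197 and 39 with trend and block, and the last 3 gave 0 members. In NAC against WT the fold change rule gave 398 and 589 with 2 members, the trend removed 1811 and 1245, and trend and block 1679 and 1165. In low O2 against WT, DESeq2 gave 519 and 440, no filter 680 and 670, and 4 libraries 656 and 632. The member called was TET2 by the fold change rule, and DNMT3A with the trend removed and with trend and block. With the trend removed, 405 genes were higher and 213 lower. Over all settings that keep every group whole, higher genes ran from 234 to 680 and lower genes from 181 to 670. In NAC against low O2, 4 libraries gave 1452 higher, the fold change rule 311 and 392 with 0 members, the trend removed 1212 and 1253, and trend and block 1074 and 1144. The cause was not tested.

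With 1 library left out, higher genes, lower genes and members ran from 29 to 826, 34 to 485 and 0 to 3 in KO against WT, from 2634 to 4070, 2397 to 3521 and 5 to 6 in NAC against KO, from 29 to 1320, 5 to 1443 and 0 to 3 in low O2 against KO, from 1969 to 3485, 1847 to 2985 and 4 to 6 in NAC against WT, from 62 to 843, 37 to 743 and 0 to 0 in low O2 against WT, and from 637 to 2900, 717 to 2568 and 4 to 6 in NAC against low O2. In the 3 comparisons without NAC, counts were highest without either NAC library. The cause was not tested.

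Directions reversed with the trend removed, and with trend and block, for DNMT3A in NAC against KO (0.22 and 0.22, with adjusted p = 0.0420 and 0.0578), low O2 against KO (0.24 and 0.24) and NAC against WT (0.35 and 0.35), DNMT3B in low O2 against KO (0.021 and 0.019), UHRF1 in low O2 against WT (0.044 and 0.044), and CDK1 (-0.11 and -0.11) and MBD4 (-0.037 and -0.038) in NAC against KO. With 1 library left out, values ran from -0.196 to 3.227 for DDIT4 in NAC against KO and from -0.018 to 0.326 for UBQLN1 in NAC against low O2, each lowest without NAC replicate 1. They ran from -0.053 (without KO replicate 2) to 0.136 for TET1 in low O2 against KO, where the value was -0.043 without low O2 replicate 1, and from -0.148 to 0.056 (without low O2 replicate 1) for UHRF1 in low O2 against WT. The cause was not tested.

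The replicate block gave 257 higher and 109 lower genes in KO against WT and 676 and 741 in low O2 against KO. Differences between replicates correlated from -0.02 to 0.08 between groups across genes, so the replicate numbers do not pair the libraries by this measure.

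With 2 libraries a group, 1 library decides several calls, and DNMT3L and TET2 are limited by depth. Clone, vehicle, passage, exposure time and any unlabelled batch cannot be told apart from the groups. What the length and GC trend comes from was not tested.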
